A study of Caenorhabditis elegans with 15 samples.

Results

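The genes described here encode lysozymes (lys- and ilys-), saposin-like proteins (spp-), caenacins (cnc-) and antibacterial factors (abf-) of the nematode Caenorhabditis elegans. They were chosen by symbol: every probe set that the array's annotation ties to exactly 1 gene, with a symbol starting lys-, ilys-, spp-, cnc- or abf-, is a member. The rule found 47 genes on 54 probe sets, out of 17118 genes on 20766 such probe sets. There were 10 lys- genes, 6 ilys- genes, 18 spp- genes, 8 cnc- genes and 5 abf- genes. A further 6 probe sets that list several genes, the first of them from these families, were set aside because their signal cannot be given to 1 gene.

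Whole larvae of 5 strains were profiled on 15 Affymetrix arrays covering 13 biological samples, and the title of the study asks whether RNAi factors and a retinoblastoma-related gene hold down the targets of endogenous small interfering RNAs. Strain VC446 carries alg-1(gk214), a mutation in an Argonaute gene of the microRNA pathway, and had 3 populations. Strain RB774 carries zfp-1(ok554), a mutation in a PHD zinc finger gene, and had 2 populations. Strain BB11 carries rde-4(ne299), a mutation in a gene whose protein binds double-stranded RNA and works with Dicer, and had 3 populations. Strain MT3033 carries lin-35(n745), in the worm's retinoblastoma gene, together with unc-13(e1091), in a synaptic vesicle priming gene, and had 2 populations, so the effects of its 2 mutations cannot be told apart. N2 of Bristol served as wild type, also with 3 populations. In all groups, embryos from bleached adults hatched overnight without food, and the larvae were then fed Escherichia coli OP50 for 6 to 7 h. Each mutant is 1 strain, and no rescued or outcrossed control was analysed here.

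Lysozymes cut the peptidoglycan of bacterial cell walls. The lys- enzymes of this worm resemble those of protists and the ilys- enzymes belong to the invertebrate type, and several of both kinds act in the intestine, where the worm meets the bacteria it eats. Saposin-like proteins of the spp- family include the caenopores, which make holes in bacterial membranes, caenacins are small peptides made in the epidermis upon fungal infection, and antibacterial factors resemble defensins. Many of these genes respond to infection through the p38 MAP kinase, insulin-like, GATA factor and TGF-beta-like pathways.

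Values are log2 GCRMA values of probe sets, and a group's value is a mean ± SD over its biological samples. A gene was tested if it reached 5 in 2 or more of the 13 samples, which 27 of the 47 members and 8653 genes in all met. The members tested were 8 lys-, 2 ilys-, 11 spp-, 5 cnc- and 1 abf- genes. The other 20 stayed below 5 in every sample, at 1.82 to 4.80: abf-1, abf-2, abf-3, abf-4, cnc-1, cnc-5, cnc-7, ilys-1, ilys-2, ilys-3, ilys-6, lys-5, lys-9, spp-6, spp-7, spp-11, spp-12, spp-13, spp-19 and spp-27. Among those tested, 19 reached 5 in all 13 samples, and lys-6 and lys-10 did so in wild type alone. For these last 2 genes a test against wild type was conditioned on a high wild-type level, so that counts are also given without them.

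Several members lie side by side in the genome, by the gene order of the RefSeq annotation of assembly WBcel235. lys-1, lys-2 and lys-3 are neighbours on chromosome V with no other coding gene between them, and lys-4, lys-5 and lys-6 form a like row on chromosome IV. The rows cnc-11, cnc-1, cnc-5, cnc-4, cnc-3 and cnc-2 on chromosome V and ilys-3, ilys-2 and ilys-1 on chromosome IV are built the same way. Probe sets of 10 tested members carry the manufacturer's mark for probes shared with other transcripts, among them those of lys-2, lys-3, lys-4, lys-6, lys-7, ilys-5, spp-1 and cnc-3, and their values may hold signal of a related gene.

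Against the same 3 wild-type samples, members passed mainly downwards in the zfp-1 and rde-4 strains. A change passed at a limma p of 0.05, two-sided, after Benjamini-Hochberg adjustment over the 8653 genes. Members are counted here first over the 25 that reached 5 in at least 1 mutant sample, beside the 8639 genes that did so. Shares of all genes, here and below, are those at the adjusted threshold. No such share was computed for counts at an unadjusted p, which cannot be set beside them. In rde-4 larvae 5 of 25 members (20.0%) fell and 0 rose in limma, with 8 lower and 0 higher at an unadjusted p under 0.05, beside 11.1% of all genes, of which 6.39% rose and 4.68% fell. In zfp-1 larvae 4 members (16%) fell and 0 rose in limma, with 9 lower and 0 higher unadjusted, beside 4.16% of all genes, with 1.27% higher and 2.88% lower. In alg-1 larvae 1 member rose and 1 fell (8%), beside 3.09% of all genes, with 1.08% higher and 2.01% lower. In lin-35 unc-13 larvae 2 members rose (8%) and 0 fell in limma, with 2 lower unadjusted, beside 6.62% of all genes, with 5.20% higher and 1.42% lower.

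With lys-6 and lys-10 included, whose tests were conditioned on their wild-type levels, the counts over 27 members were 7 lower in rde-4, 5 lower in zfp-1, 1 higher and 2 lower in alg-1, and 2 higher and 1 lower in lin-35 unc-13 larvae. Over all 8653 genes, 11.1% passed in rde-4 (6.38% higher, 4.73% lower), 4.20% in zfp-1 (1.27% and 2.92%), 3.13% in alg-1 (1.07% and 2.06%) and 6.66% in lin-35 unc-13 larvae (5.19% and 1.47%).

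The median log2 change of the 25 members was -0.66 in zfp-1, -0.30 in rde-4, -0.20 in alg-1 and -0.12 in lin-35 unc-13 larvae. For all genes on the same basis it was 0.00 in zfp-1, 0.04 in rde-4, 0.02 in alg-1 and 0.01 in lin-35 unc-13 larvae. Changes were below zero for 20 of the 25 members in zfp-1, 17 in rde-4, 16 in alg-1 and 15 in lin-35 unc-13 larvae, beside 50.5%, 46.8%, 47.1% and 48.8% of all genes. In at least 1 mutant 8 of the 25 (32%) passed: lys-1, lys-2, lys-4, lys-7, ilys-5, spp-15, spp-18 and spp-31. Of all genes on the same basis 18.9% passed in at least 1 mutant, and 17 members passed in none.

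**Figure D1:**
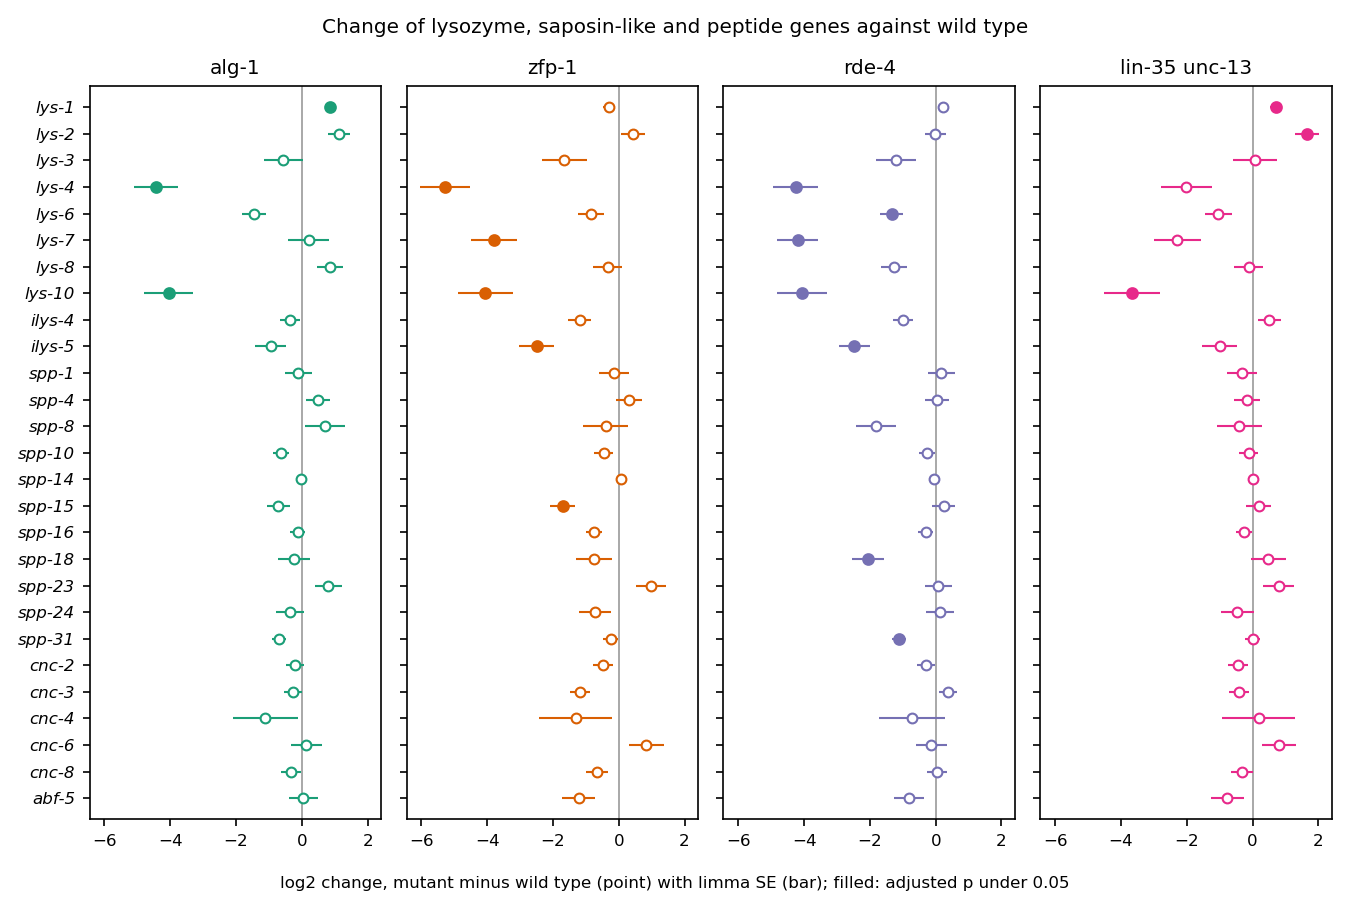
Log2 change of each of the 27 tested members from wild type, in 1 panel per mutant, with limma's standard error as a bar and filled points for changes that passed. Of the 18 filled points, 15 lie below zero, of which 5 belong to lys-6 and lys-10, whose tests were conditioned on wild type. The largest falls among the others are those of lys-4 and lys-7. The points are not independent, as the panels share the 3 wild-type samples and some genes recur. Of all 8653 genes, 4.73% were lower and 6.38% higher in rde-4, 2.92% and 1.27% in zfp-1, 2.06% and 1.07% in alg-1, and 1.47% and 5.19% in lin-35 unc-13 larvae.

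Leaving out or joining single samples moved the counts over 27 members, which include lys-6 and lys-10 with their conditioned tests. Replicates 1 and 3 of alg-1 differed over all genes by an SD of 0.27, beside 0.22 and 0.36 between 2 arrays of the same sample. The 2 zfp-1 populations differed by an SD of 0.36, and other pairs of populations of a strain by 0.46 to 0.77. Taken as 1 sample, alg-1 replicates 1 and 3 left 1 member past the threshold in alg-1 larvae. The alg-1 count of 3 became 5 without wild-type replicate 1 and 1 without alg-1 replicate 1 or replicate 3. The zfp-1 count of 5 became 2 without wild-type replicate 2, 1 without zfp-1 replicate 1 and 0 without zfp-1 replicate 2 (7 at an unadjusted p under 0.05), where the limma fit rests on a lone zfp-1 sample assumed to vary like the others. The rde-4 count of 7 became 4 without wild-type replicate 2. The lin-35 unc-13 count of 3 became 1 without wild-type replicate 2 and 0 without lin-35 unc-13 replicate 2 (9 unadjusted), again with a lone sample. A second principal component over all genes set wild-type replicates 1 and 2, at 46.1 and 49.3, apart from replicate 3, at 13.6, and the mutant samples ran from -30.9 to 21.9. With replicate 3 alone as the wild type, the counts were 1 in alg-1, 1 in zfp-1, 1 in rde-4 and 2 in lin-35 unc-13 larvae.

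Among the lys- genes, lys-4 fell in alg-1, zfp-1 and rde-4 larvae. Its values were 5.40, 6.04 and 5.24 in alg-1 larvae, 4.92 and 4.49 in zfp-1 larvae, 4.9, 7.43 and 4.85 in rde-4 larvae, and 7.32 and 8.60 in lin-35 unc-13 larvae, against 9.51, 11.18 and 9.27 in wild type. Every mutant sample of the 4 strains lay below every wild-type sample, with the lin-35 unc-13 samples and rde-4 replicate 2 nearest to them. The change from wild type was -4.43 ± 0.68 (SE, limma adjusted p = 0.0074), or 21.5-fold lower, in alg-1 larvae. In zfp-1 larvae, which lay wholly below 5, lys-4 was at least 31.7-fold lower (-5.28 ± 0.77, limma adjusted p = 0.0044), a call that was lost without zfp-1 replicate 2 (limma adjusted p = 0.067). In rde-4 larvae, 2 of whose 3 samples were below 5, the change was -4.26 ± 0.68 (limma adjusted p = 0.0054). The lin-35 unc-13 difference of -2.02 ± 0.77 did not pass (limma adjusted p = 0.16).

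A second lysozyme, lys-7, which is known to be needed for resistance to some bacterial pathogens, fell in zfp-1 and rde-4 larvae and not in alg-1 larvae. It stood at 7.89, 10.22 and 7.73 in alg-1 larvae, 4.42 and 4.81 in zfp-1 larvae, 3.45, 4.40 and 4.75 in rde-4 larvae and 5.39 and 6.83 in lin-35 unc-13 larvae, against 7.73, 8.70 and 8.78 in wild type. All zfp-1 and rde-4 samples lay below 5, the alg-1 samples spanned the wild-type ones, and the lin-35 unc-13 samples lay between. lys-7 was thus at least 10.6-fold lower than in wild type both in rde-4 larvae (-4.20 ± 0.63, limma adjusted p = 0.0038) and in zfp-1 larvae (-3.79 ± 0.71, limma adjusted p = 0.015). The rde-4 call held with every sample left out in turn. The zfp-1 call was lost without wild-type replicate 2 (limma adjusted p = 0.058), zfp-1 replicate 1 (0.14) or zfp-1 replicate 2 (0.11). The differences in alg-1 (0.21 ± 0.63, limma adjusted p = 0.91) and lin-35 unc-13 larvae (-2.29 ± 0.71, limma adjusted p = 0.084) did not pass.

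The lys-10 probe set was near the bottom of the scale in every mutant. Its values were 2.00, 2.00 and 1.99 in alg-1, 2.00 and 1.97 in zfp-1, 1.99, 1.98 and 1.98 in rde-4 and 2.78 and 1.97 in lin-35 unc-13 larvae, against 3.87, 8.12 and 6.15 in wild type. No mutant sample reached the lowest wild-type sample, and the wild-type samples themselves lay far apart. Measured against a value of 5, lys-10 was at least 2.06-fold lower in each mutant. The gene entered the tests only through 2 wild-type samples, so its limma adjusted p of 0.017 in alg-1, 0.022 in zfp-1, 0.01 in rde-4 and 0.021 in lin-35 unc-13 larvae is conditioned on them and is given as a description. All mutants were set against the same 3 wild-type samples, and these are not 4 independent results. The difference followed the wild-type samples used: in rde-4 larvae it was -5.15 without wild-type replicate 1 and -3.02 without replicate 2. The adjusted p was above 0.05 in alg-1 larvae without alg-1 replicate 1 (limma adjusted p = 0.072) or 3 (0.069), in zfp-1 larvae without zfp-1 replicate 1 (0.16) or 2 (0.17), and in lin-35 unc-13 larvae without lin-35 unc-13 replicate 1 (0.078) or 2 (0.16).

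The lys-6 gene, next to lys-4 and lys-5 on chromosome IV, was dim throughout. It read 2.96, 3.28 and 3.13 in alg-1, 4.06 and 3.43 in zfp-1, 2.97, 3.42 and 3.35 in rde-4 and 3.32 and 3.78 in lin-35 unc-13 larvae, against 3.60, 5.05 and 5.12 in wild type. The alg-1 and rde-4 samples lay below all wild-type samples, and the zfp-1 and lin-35 unc-13 samples overlapped wild-type replicate 1. The rde-4 difference of -1.34 ± 0.36 had a limma adjusted p of 0.038, conditioned on the 2 wild-type samples through which the gene entered the tests. No fold or direction is given, because both group means lie below 5. The adjusted p was above the threshold without wild-type replicate 2 (limma adjusted p = 0.13) or 3 (0.077), alg-1 replicate 1 (0.053) or 3 (0.053), zfp-1 replicate 1 (0.052) or 2 (0.052), or rde-4 replicate 1 (0.11), 2 (0.064) or 3 (0.072). In alg-1 larvae the difference was -1.46 ± 0.36 (limma adjusted p = 0.053).

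Unlike these, lys-1 and lys-2, lysozyme genes of the row on chromosome V, moved upwards where they passed. lys-1, which is induced by Serratia infection, stood at 14, 13.91 and 14.06 in alg-1, 12.85 and 12.82 in zfp-1, 13.28, 13.38 and 13.38 in rde-4 and 13.65 and 14.05 in lin-35 unc-13 larvae, against 13.29, 13.10 and 12.99 in wild type. Both zfp-1 samples lay below wild type and all alg-1 and lin-35 unc-13 samples above it, over a range that is narrow beside that of lys-4 or lys-7. lys-1 rose 1.82-fold in alg-1 larvae (0.87 ± 0.16, limma adjusted p = 0.017) and 1.65-fold in lin-35 unc-13 larvae (0.72 ± 0.18, limma adjusted p = 0.033). The alg-1 rise was lost without wild-type replicate 2 (limma adjusted p = 0.067), alg-1 replicate 1 (0.081) or alg-1 replicate 3 (0.086). The lin-35 unc-13 rise was lost without wild-type replicate 2 (limma adjusted p = 0.095) or 3 (0.069), alg-1 replicate 1 (0.059) or 3 (0.054), zfp-1 replicate 1 (0.06) or 2 (0.06), rde-4 replicate 1 (0.054) or lin-35 unc-13 replicate 2 (0.21). It was also lost after quantile normalisation (limma adjusted p = 0.06) or subtraction of array medians (0.092).

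For lys-2, values were 12.23, 11.55 and 12.30 in alg-1, 11.40 and 11.27 in zfp-1, 11.25, 10.83 and 10.56 in rde-4 and 12.24 and 12.86 in lin-35 unc-13 larvae, against 11.51, 10.32 and 10.85 in wild type. The lin-35 unc-13 and alg-1 samples all lay above wild type, alg-1 replicate 2 by little, and the rde-4 and zfp-1 samples lay within its range. Its rise in lin-35 unc-13 larvae was 3.14-fold (1.65 ± 0.36, limma adjusted p = 0.016) and was lost without wild-type replicate 2 (limma adjusted p = 0.058) or lin-35 unc-13 replicate 2 (0.15). The alg-1 difference of 1.13 ± 0.32 did not pass (limma adjusted p = 0.086). Its neighbour lys-3 differed by -1.65 ± 0.67 in zfp-1 larvae and 0.07 in lin-35 unc-13 larvae, and passed nowhere.

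The last tested lysozyme of this type, lys-8, showed its low values in rde-4 larvae. It measured 10.01, 10.57 and 10.22 in alg-1, 9.10 and 9.03 in zfp-1, 7.43, 8.74 and 8.27 in rde-4 and 9.57 and 9.02 in lin-35 unc-13 larvae, against 10.31, 9.13 and 8.79 in wild type. The rde-4 samples lay below all wild-type samples, but the difference of -1.26 ± 0.40 did not pass (limma adjusted p = 0.064). Of the 6 lys- genes that reached 5 in a mutant, limma thus called 2 lower in rde-4, 2 lower in zfp-1, 1 lower and 1 higher in alg-1, and 2 higher in lin-35 unc-13 larvae. Shares of all genes on the same basis were 4.68% lower in rde-4, 2.88% lower in zfp-1, 2.01% lower and 1.08% higher in alg-1, and 5.20% higher in lin-35 unc-13 larvae.

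**Figure D2:**
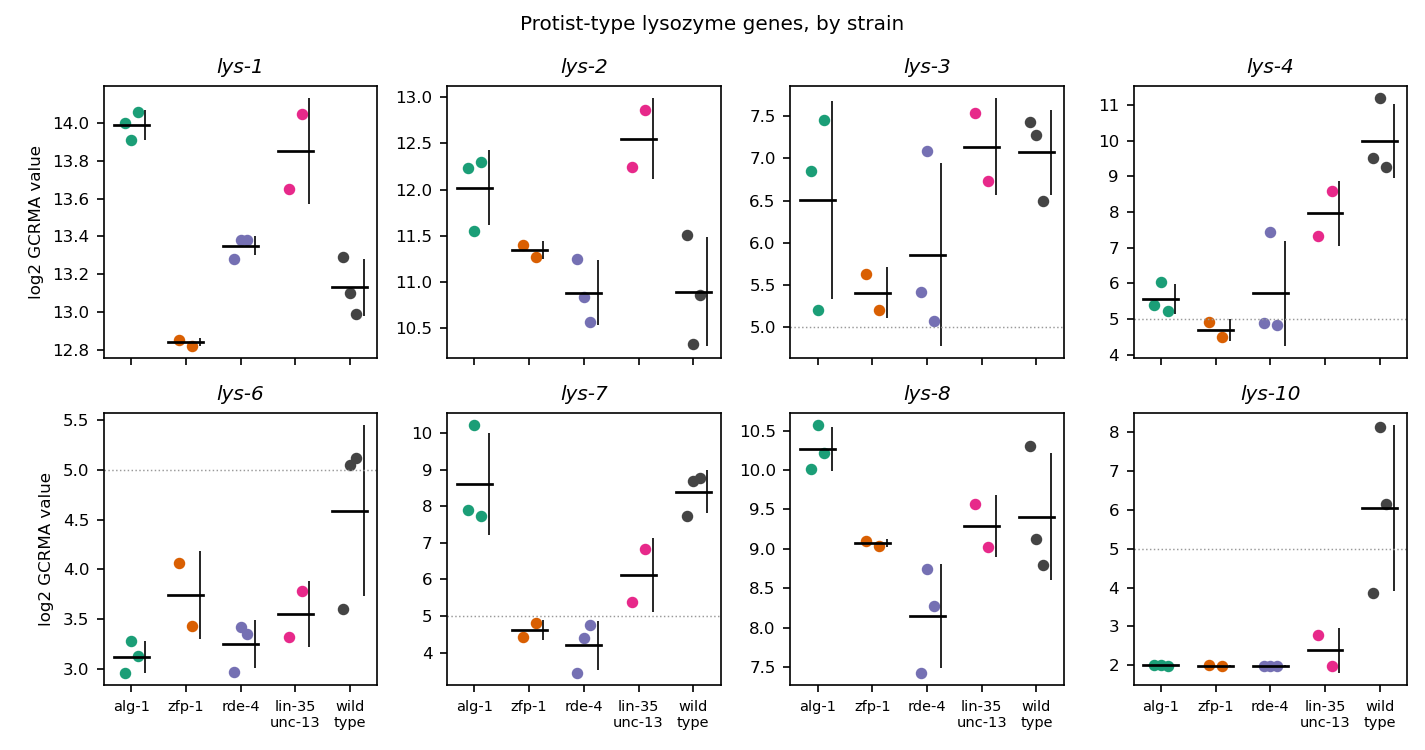
Log2 values of the 8 tested lys- genes in every biological sample by strain, with the group mean as a horizontal and the SD as a vertical bar. A dotted line at 5 marks dim values in panels with values under 7, and each panel has its own axis. For lys-4 all 10 mutant samples lie below the 3 wild-type samples, and for lys-7 the zfp-1 and rde-4 samples lie below 5.

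Of the 2 invertebrate-type lysozymes tested, ilys-5 fell in zfp-1 and rde-4 larvae. It had 12.17, 11.48 and 11.92 in alg-1, 10.61 and 9.98 in zfp-1, 10.36, 11.03 and 9.56 in rde-4 and 11.12 and 12.46 in lin-35 unc-13 larvae, against 12.01, 13.51 and 12.85 in wild type. The zfp-1 and rde-4 samples all lay below wild type, and the alg-1 and lin-35 unc-13 samples overlapped it. The fall was 5.65-fold in zfp-1 larvae (-2.50 ± 0.53, limma adjusted p = 0.024) and 5.58-fold in rde-4 larvae (-2.48 ± 0.47, limma adjusted p = 0.012). The gene's other 2 probe sets gave -2.51 and -2.47 in zfp-1 and -2.46 and -2.44 in rde-4 larvae. The zfp-1 call was lost without wild-type replicate 2 (limma adjusted p = 0.088), zfp-1 replicate 1 (0.12) or zfp-1 replicate 2 (0.24), and the rde-4 call without wild-type replicate 2 (0.051).

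The other gene of this type, ilys-4, passed in no mutant against wild type. Its values were 9.88, 9.44 and 9.46 in alg-1, 8.59 and 8.91 in zfp-1, 9.04, 9.31 and 8.46 in rde-4 and 10.51 and 10.41 in lin-35 unc-13 larvae, against 10.53, 9.98 and 9.32 in wild type. The zfp-1 and rde-4 samples lay below all wild-type samples, with differences of -1.19 ± 0.34 (limma adjusted p = 0.075) and -1.0 ± 0.30 (limma adjusted p = 0.055).

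Among the 11 saposin-like genes tested, 3 passed, each in 1 mutant, beside 18.9% of all genes that passed in at least 1 mutant. The count was not tested against this share. The gene spp-18 fell 4.14-fold in rde-4 larvae (-2.05 ± 0.48, limma adjusted p = 0.024). Its values were 10.79, 10.84 and 10.60 in alg-1, 10.32 and 10.15 in zfp-1, 7.59, 9.46 and 9.78 in rde-4 and 11.56 and 11.37 in lin-35 unc-13 larvae, against 11.72, 10.65 and 10.60 in wild type. The rde-4 samples were the lowest 3 of all, with replicate 1 well under the other two. The call was lost without wild-type replicate 1 (limma adjusted p = 0.092) or 2 (0.059), and the change was -1.37 at its smallest with a sample left out.

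In the same strain spp-31 fell 2.17-fold (-1.12 ± 0.21, limma adjusted p = 0.01). It stood at 8.93, 9.15 and 9.22 in alg-1, 9.57 and 9.55 in zfp-1, 9.09, 8.32 and 8.65 in rde-4 and 9.79 and 9.81 in lin-35 unc-13 larvae, against 9.75, 9.62 and 10.03 in wild type. The rde-4, alg-1 and zfp-1 samples all lay below wild type, and the rde-4 call held with every sample left out in turn. The alg-1 difference of -0.70 ± 0.21 did not pass (limma adjusted p = 0.096).

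The third, spp-15, fell 3.27-fold in zfp-1 larvae (-1.71 ± 0.38, limma adjusted p = 0.03). It had 8.97, 8.17 and 8.75 in alg-1, 7.92 and 7.35 in zfp-1, 9.14, 10.38 and 9.25 in rde-4 and 9.44 and 9.63 in lin-35 unc-13 larvae, against 9.04, 9.75 and 9.25 in wild type. The zfp-1 samples were the lowest 2 of all, and the alg-1 samples also lay below wild type. The zfp-1 call was lost without wild-type replicate 2 (limma adjusted p = 0.11), zfp-1 replicate 1 (0.12) or zfp-1 replicate 2 (0.29).

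The other 8 saposin-like genes tested passed in no mutant. spp-14 kept nearly 1 level: 12.90, 12.96 and 12.78 in alg-1, 13.11 and 12.86 in zfp-1, 12.93, 12.81 and 12.85 in rde-4 and 12.87 and 12.99 in lin-35 unc-13 larvae, against 12.87, 12.90 and 12.94 in wild type. Its group means spanned 0.12 log2 units and its pooled SD of 0.09 was the smallest among the tested members. spp-1, a caenopore gene with activity against bacteria, had 12.73, 11.83 and 12.55 in alg-1, 12.12 and 12.54 in zfp-1, 12.25, 13.12 and 12.57 in rde-4 and 11.31 and 13 in lin-35 unc-13 larvae, against 12.14, 12.60 and 12.71 in wild type. All groups overlapped there, with differences from wild type of -0.11, -0.15, 0.17 and -0.33 for alg-1, zfp-1, rde-4 and lin-35 unc-13. The other spp-1 probe set, without the mark for shared probes, was dim in every sample, at 3.05 to 3.64. The 2 probe sets disagree on the level of spp-1, and which of them follows the gene is not known here.

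For spp-10, a gene related to mammalian prosaposin, values were 10.70, 11.28 and 11.12 in alg-1, 11.36 and 11.07 in zfp-1, 11.61, 11.07 and 11.55 in rde-4 and 11.80 and 11.30 in lin-35 unc-13 larvae, against 11.69, 12.01 and 11.32 in wild type. The alg-1 samples lay below all wild-type samples by a small margin, and the difference of -0.64 did not pass (limma adjusted p = 0.19). Its probe sets disagreed there, at -0.64, -0.83 and 1.12, so that no direction is given for this gene. spp-8, close to spp-10 on chromosome IV, read 8.21, 8.52 and 8.21 in alg-1, 7.22 and 7.19 in zfp-1, 4.12, 6.51 and 6.74 in rde-4 and 6.42 and 7.98 in lin-35 unc-13 larvae, against 7.42, 8.21 and 7.19 in wild type. Its rde-4 samples lay below all wild-type samples, with replicate 1 lowest, and the difference of -1.82 ± 0.61 did not pass (limma adjusted p = 0.074). That probe set carries the mark for shared probes. The other spp-8 probe set, without the mark, had 2.51, 4.57 and 4.57 in rde-4 larvae, against 6.45, 6.10 and 4.53 in wild type. There the 2 groups overlapped.

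None of the 5 caenacin genes tested passed in any mutant in limma, beside 18.9% of all genes that passed in at least 1 mutant. Of the 5, cnc-3 in zfp-1 larvae was lower at an unadjusted p under 0.05. cnc-3 stood at 10.18, 10.12 and 9.90 in alg-1, 9.17 and 9.15 in zfp-1, 10.13, 11.15 and 10.85 in rde-4 and a mean of 9.92 in the 2 lin-35 unc-13 samples, against 9.94, 10.29 and 10.80 in wild type. Its zfp-1 samples lay below all others, at -1.18 ± 0.30 from wild type (limma adjusted p = 0.052). The neighbouring cnc-4 varied most within groups of all tested members (pooled SD 1.44), from 7.55 to 11.03 among the wild-type samples alone. cnc-2 and cnc-6 were dim, at 4.18 to 5.22 and 2.92 to 5.13. abf-5, the tested antibacterial factor gene, had 7.02, 7.57 and 6.61 in alg-1, 5.66 and 5.92 in zfp-1, 5.47, 6.43 and 6.69 in rde-4 and 6.29 and 6.20 in lin-35 unc-13 larvae, against 7.87, 7.22 and 5.95 in wild type. Its zfp-1 samples lay just below wild type, with a difference of -1.22 that did not pass (limma adjusted p = 0.18).

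**Figure D3:**
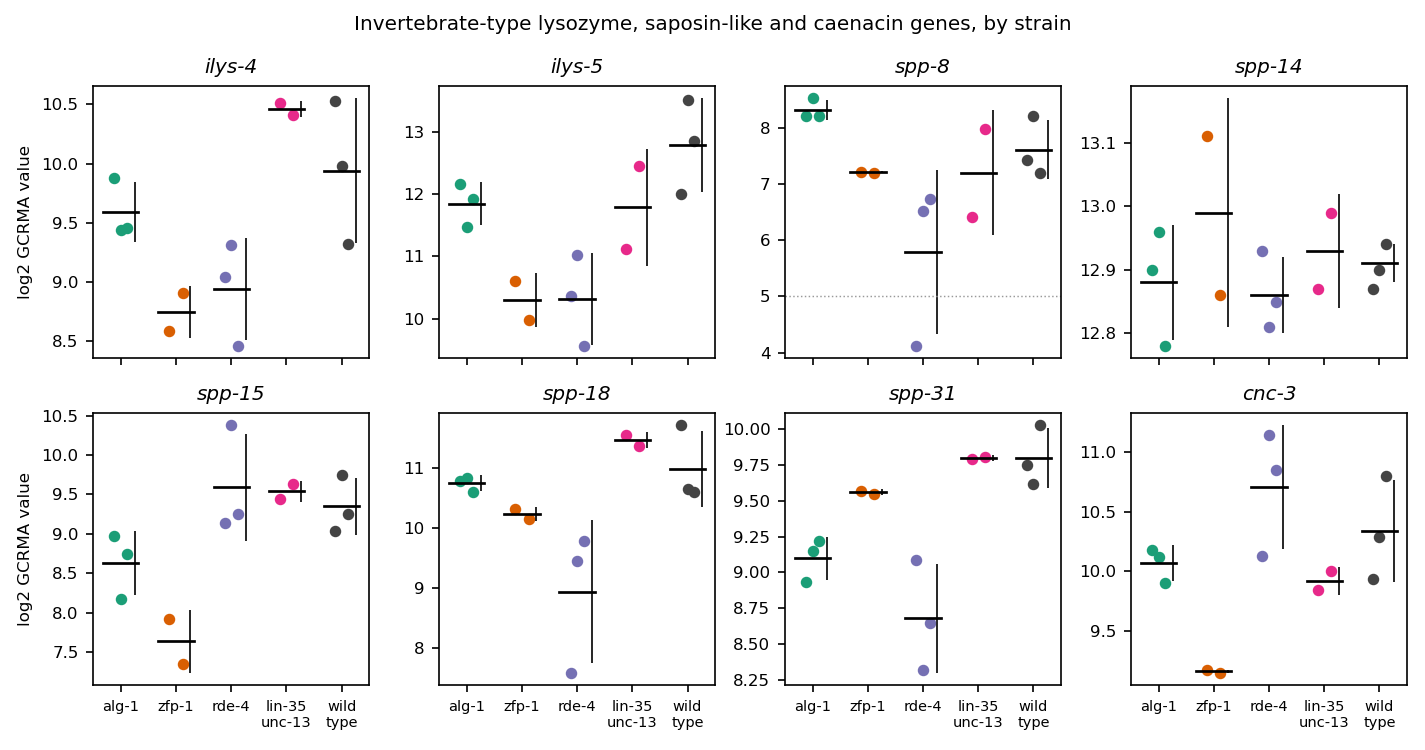
Log2 values in every biological sample, by strain, of ilys-4, ilys-5, spp-8, spp-14, spp-15, spp-18, spp-31 and cnc-3, with mean and SD as bars, a dotted line at 5 in panels with values under 7, and 1 axis per panel. The rde-4 mean is lowest for spp-8, spp-18 and spp-31, the zfp-1 mean for spp-15 and cnc-3, and spp-14 stays between 12.78 and 13.11.

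Over the 27 members, group means spanned less than 1 log2 unit for 10 genes and 2 or more for 7. The lowest group mean was that of zfp-1 larvae for 14 members, rde-4 for 8, alg-1 for 2, lin-35 unc-13 for 2 and wild type for 1. These spans and lowest means were not counted over all genes and only describe the members. They include lys-6 and lys-10, which entered the tests through wild type. Dim genes count too: lys-10 had means of 1.98 in zfp-1, 1.99 in rde-4 and 2.00 in alg-1 larvae. Among the 25 members that reached 5 in a mutant, all zfp-1 samples lay below all wild-type samples for 14 and above them for 1, beside 21.8% and 23.0% of all genes on the same basis. In rde-4 larvae this held for 8 and 0 members, beside 13.2% and 19.0%. In alg-1 larvae it held for 4 and 3, beside 11.4% and 11.5%, and in lin-35 unc-13 larvae for 2 and 3, beside 17.3% and 18.9%.

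Direct tests between mutants asked where members differed between strains, with the spread taken from all 5 groups, wild type included. Between alg-1 and rde-4 larvae, where 1.02% of all genes passed and 0.647% were higher in alg-1, lys-7 was at least 12.2-fold higher in alg-1, as all rde-4 samples lay below 5 (limma adjusted p = 0.0057), and lys-8 was higher by 2.12 ± 0.40 (limma adjusted p = 0.027). Between alg-1 and zfp-1 larvae, where 0.705% of genes passed and 0.497% were higher in alg-1, lys-7 was at least 12.2-fold higher in alg-1, as both zfp-1 samples lay below 5 (limma adjusted p = 0.023), and lys-1 was higher by 1.16 ± 0.18 (limma adjusted p = 0.011). Between zfp-1 and rde-4 larvae, with 1.36% of genes past the threshold and 0.867% lower in zfp-1, cnc-3 differed by -1.55 ± 0.30 (limma adjusted p = 0.029) and spp-15 by -1.95 ± 0.38 (limma adjusted p = 0.029), both lower in zfp-1. The difference of lys-7 between alg-1 and rde-4 held with every sample left out in turn. That of lys-8 was lost without alg-1 replicate 1 (limma adjusted p = 0.07), 2 (0.098) or 3 (0.089), zfp-1 replicate 1 (0.053) or 2 (0.053), or rde-4 replicate 1 (0.1) or 3 (0.056). Between alg-1 and zfp-1, lys-7 was lost without zfp-1 replicate 1 (limma adjusted p = 0.26) or 2 (0.19), and lys-1 without those (0.13 and 0.17) or alg-1 replicate 1 (0.055) or 3 (0.053). The cnc-3 difference was lost without zfp-1 replicate 1 (limma adjusted p = 0.24) or 2 (0.27), rde-4 replicate 2 (0.078) or 3 (0.077), or alg-1 replicate 1 (0.052) or 3 (0.051). That of spp-15 was lost without zfp-1 replicate 1 (limma adjusted p = 0.14) or 2 (0.36), rde-4 replicate 2 (0.052), alg-1 replicate 3 (0.052), or lin-35 unc-13 replicate 1 (0.051) or 2 (0.051).

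The lin-35 unc-13 strain was higher than the zfp-1 strain in 4 members, beside 6.28% of all genes that passed, of which 5.64% were higher and 0.636% lower. These were lys-4 (at least 7.8-fold, with both zfp-1 samples below 5, limma adjusted p = 0.041), spp-15 (1.90 ± 0.42, limma adjusted p = 0.018), ilys-4 (1.71 ± 0.37, limma adjusted p = 0.017) and lys-1 (1.01 ± 0.20, limma adjusted p = 0.0085). It was higher than the rde-4 strain in 4 members as well, beside 11.4% of all genes, of which 7.96% were higher and 3.41% lower. These were spp-18 (2.52 ± 0.54, limma adjusted p = 0.01), lys-2 (1.67 ± 0.36, limma adjusted p = 0.011), ilys-4 (1.52 ± 0.34, limma adjusted p = 0.014) and spp-31 (1.11 ± 0.23, limma adjusted p = 0.0087). Against the alg-1 strain 0 members passed in limma and 5 had an unadjusted p under 0.05, beside 6.95% of all genes that passed, of which 5.50% were higher and 1.44% lower. With each sample left out, the 4 differences from zfp-1 kept their sign and ran from 2.62 to 3.90 for lys-4 as measured, 1.62 to 2.18 for spp-15, 1.55 to 1.86 for ilys-4 and 0.81 to 1.21 for lys-1, while the calls were lost in several cases. lys-4 was lost without lin-35 unc-13 replicate 1 (limma adjusted p = 0.081) or 2 (0.21), zfp-1 replicate 1 (0.16) or 2 (0.22), or alg-1 replicate 1 (0.061) or 3 (0.06). Without lin-35 unc-13 replicate 1 or 2, or zfp-1 replicate 1 or 2, the limma adjusted p was 0.086, 0.093, 0.051 and 0.17 for spp-15 and 0.11, 0.066, 0.15 and 0.067 for ilys-4. lys-1 was lost without lin-35 unc-13 replicate 2 (limma adjusted p = 0.057) or zfp-1 replicate 1 (0.069) or 2 (0.075). Of the differences from rde-4, those of spp-18 (limma adjusted p = 0.095) and spp-31 (0.06) were lost without lin-35 unc-13 replicate 1, that of lys-2 without replicate 2 (0.084), and that of ilys-4 without either (0.11 and 0.052).

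Other genes of immune pathways were read beside the members. Of all 8653 genes, 4.73% fell in rde-4, 2.92% in zfp-1, 2.06% in alg-1 and 1.47% in lin-35 unc-13 larvae. The counts in this and the following lists are descriptions and were not tested against these shares. Of 23 tested regulators, which include the p38 MAP kinase cascade, the insulin-like pathway and GATA factors, 2 fell in rde-4 larvae: tir-1, the adaptor at the head of the p38 cascade (-1.03 ± 0.27, limma adjusted p = 0.034), and snf-12, a transporter-like protein needed for antimicrobial peptide induction in the epidermis (-1.20 ± 0.32, limma adjusted p = 0.037). In the other 3 strains 0 of the 23 passed in limma, with 1 higher and 2 lower in alg-1, 1 higher in zfp-1, and 1 higher and 1 lower in lin-35 unc-13 larvae at an unadjusted p under 0.05. Median changes of these regulators were -0.34 in rde-4, -0.03 in alg-1, -0.13 in zfp-1 and 0.02 in lin-35 unc-13 larvae. Of 10 tested genes of the TGF-beta-like pathway, lon-1, which limits body length, fell in lin-35 unc-13 larvae (-1.84 ± 0.50, limma adjusted p = 0.049). No other passed in limma, with 1 higher and 2 lower in rde-4, 2 lower in zfp-1 and 1 lower in alg-1 larvae at an unadjusted p under 0.05.

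Antimicrobial peptide genes of the nlp-29 type, which are expressed in the epidermis, had low medians in 3 strains. Of 9 tested, nlp-28 (-2.09 ± 0.45, limma adjusted p = 0.034) and nlp-30 (-1.69 ± 0.37, limma adjusted p = 0.033) fell in alg-1 larvae. In zfp-1 larvae nlp-30 (-1.79 ± 0.41, limma adjusted p = 0.033) and nlp-27 (-1.71 ± 0.42, limma adjusted p = 0.046) fell, and in lin-35 unc-13 larvae nlp-33 did (-1.0 ± 0.25, limma adjusted p = 0.036). In rde-4 larvae 0 passed in limma, with 4 lower and 1 higher at an unadjusted p under 0.05. The higher one was nlp-25, at 1.12 ± 0.39, whose rde-4 samples all lay above wild type. Median changes were -1.39 in alg-1, -1.35 in zfp-1, -0.78 in rde-4 and 0.25 in lin-35 unc-13 larvae. The probe sets of nlp-27, nlp-28, nlp-29, nlp-30, nlp-31 and nlp-33 carry the manufacturer's mark for shared probes. Their changes may hold signal of related genes and may not be separate results. The 4 thaumatin-like genes on the array were too dim to test.

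Markers of the tissues that make these proteins were read too, since in RNA of whole larvae fewer cells of a type and less RNA per cell cannot be told apart. Of 11 tested intestinal markers, cpr-6, a cathepsin B-like protease, ges-1, a gut esterase, and ftn-1, a ferritin, fell in alg-1 and zfp-1 larvae, and cpr-6 and ges-1 fell in rde-4 larvae. The cpr-6 change was -3.79 ± 0.26 in zfp-1 (limma adjusted p = 3.7e-05), -2.57 ± 0.23 in rde-4 (0.0001) and -2.03 ± 0.23 in alg-1 larvae (0.0017). In lin-35 unc-13 larvae 0 intestinal markers passed in limma, with 1 higher and 2 lower at an unadjusted p under 0.05. The intestinal actin gene act-5 lay above all wild-type samples in alg-1 (0.83 ± 0.31), zfp-1 (0.82 ± 0.35) and lin-35 unc-13 larvae (0.88 ± 0.35), and vha-6, a proton pump subunit gene, did in zfp-1 larvae (0.68 ± 0.35), and none of these passed in limma. Median changes of the 11 markers were -0.01 in alg-1, -0.29 in zfp-1, -0.35 in rde-4 and 0.04 in lin-35 unc-13 larvae. The gut GATA factor elt-2 differed by -0.02 in alg-1, -0.37 in zfp-1, -0.19 in rde-4 and 0.04 in lin-35 unc-13 larvae and passed in none. The log2 of the summed level of the 13 intestinal markers on the array ran from 16.23 to 16.44 in alg-1, 16.27 to 16.29 in zfp-1, 15.49 to 16.32 in rde-4 and 16.58 to 16.62 in lin-35 unc-13 larvae, against 16.24 to 16.40 in wild type. Of these markers, sulp-4 and end-3 were below 5 in every sample. The brightest, asp-1, had a mean of 15.77 in wild type and means of 15.42 to 15.99 in the mutants. The sum thus mostly follows asp-1, and a fall of a dimmer marker such as cpr-6 or ges-1 hardly shows in it. Of 8 tested epidermal markers 0 passed in limma in any mutant, with 1 higher in rde-4 larvae at an unadjusted p under 0.05. Their median changes were -0.07 in alg-1, -0.02 in zfp-1, 0.10 in rde-4 and -0.14 in lin-35 unc-13 larvae. Of 7 tested pharyngeal markers 0 passed in limma, with 1 lower unadjusted in lin-35 unc-13 larvae. Their medians were 0.37, 0.01, -0.70 and -0.87 in the same order. The part of RNA of these tissues in the changes above was not tested.

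RNA quality and the mutated genes bear on single strains. The 3′ minus 5′ difference of the actin control probes was 1.94 to 2.96 log2 units in rde-4 larvae, with replicate 2 highest, against 1.25 to 2.22 in wild type. The other rde-4 samples read 1.94 and 2.08. The part of RNA quality in the results was not tested. In lin-35 unc-13 larvae the 8 germ line markers on the array had a log2 summed level of 13.57 to 14.09, against 6.29 to 6.88 in wild type. Of these, nos-2 and glh-2 were below 5 in every sample. pgl-1, pgl-3, him-3, syp-1 and cpg-2 reached 5 in lin-35 unc-13 samples alone, so their tests were conditioned on that strain and are not counted. glh-1, which reached 5 in other strains too but stood at 5.23, 4.96 and 6.11 in wild type, rose by 7.05 ± 0.44 (limma adjusted p = 3.2e-07). The part of germ line RNA in the results was not tested. The rde-4 transcript had 7.60, 7.74 and 7.50 in rde-4 larvae, against 10.57, 10.45 and 10.74 in wild type, and the lin-35 transcript 7.47 and 8.24 in lin-35 unc-13 larvae, against 9.33, 9.44 and 9.62 in wild type. Both falls passed in limma, while the alg-1, zfp-1 and unc-13 transcripts did not pass in their own mutants. The position of those probes with respect to the mutations was not known here.

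**Figure D4:**
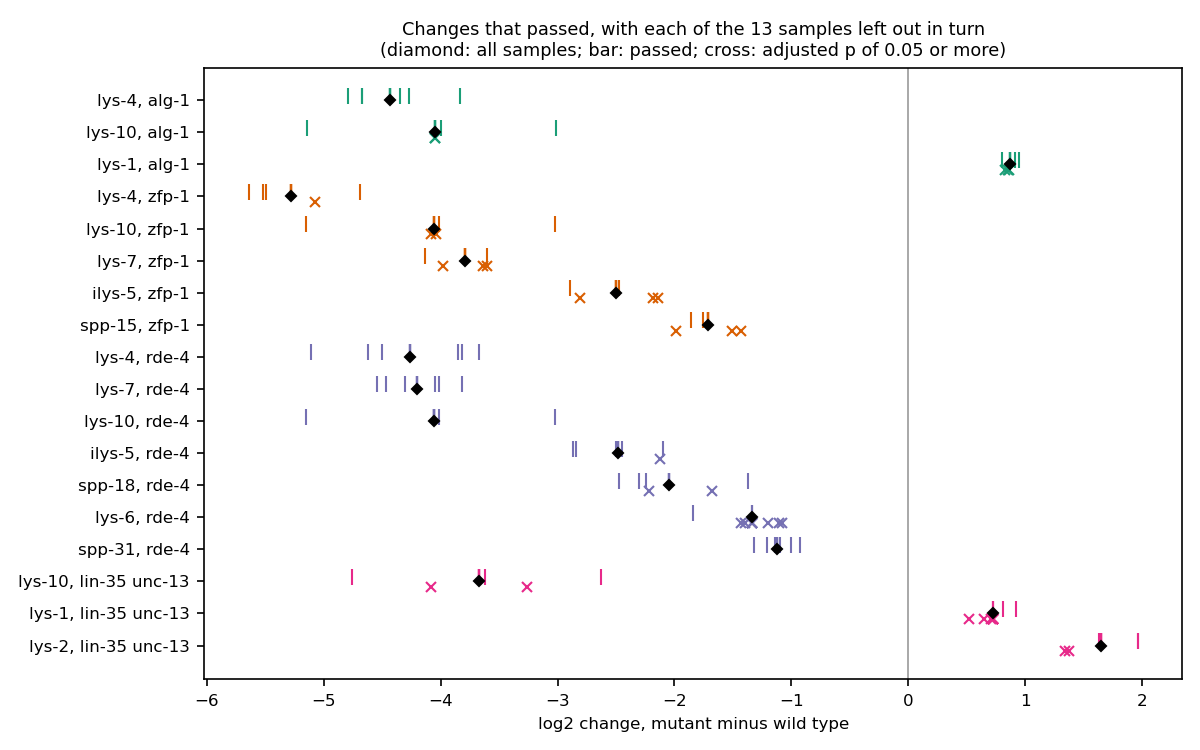
The 18 log2 changes from wild type that passed, with all samples (black diamonds) and with each of the 13 biological samples left out in turn (upright bars where the limma call held, crosses where it was lost). No change turned its sign, lys-10 moves furthest in each strain, and lys-6 in rde-4 and lys-1 in lin-35 unc-13 larvae lose the call most often. The lys-6 and lys-10 tests were conditioned on wild type.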

How the data were processed

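RNA of 13 biological samples was labelled with biotin and hybridised to Affymetrix arrays. The authors made the log2 values with GCRMA, per the submitters' processing notes, whose version and settings those notes do not give. Values ran from 1.42 to 17.03, and array medians from 4.48 to 4.86. The number of arrays limits the precision. Replicates are separately grown populations, per the series' design, but replicate 2 of zfp-1 and of lin-35 unc-13 was hybridised to 2 arrays, which were averaged. Genes were named from the platform annotation and the RefSeq table of WBcel235; the arrays' build is not named, so no coordinates are given.

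The probe set with the highest mean stood for each gene, and genes at 5 or more in 2 of 13 samples were tested. All 5 groups entered 1 limma 3.58.1 fit in R 4.3.3 (lmFit, eBayes, 8 residual degrees of freedom), with Benjamini-Hochberg adjustment within each contrast. SE is limma's. Folds against a group wholly below 5 were computed against 5. The code was tested on simulated data. Figures were drawn with matplotlib 3.10.9.

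The members and lists were chosen with earlier results of these data known. Full values are given for members that passed in a mutant, for the 5 with the highest wild-type mean (lys-1, spp-14, ilys-5, spp-1 and spp-10), and for a few more that were chosen after their values were seen. Alternatives covered normalisation, filters, arrays of a sample, samples in the fit, the replicate block, the variance prior, probe sets, the threshold, the controls and each sample left out.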

Additional observations from a re-analysis of the deposited data

How the results depend on the processing

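No change that passed turned its sign under any alternative run. The 18 changes against wild type and the counts below include lys-6 and lys-10, whose tests were conditioned on wild type. Their kept calls are no support, and the alternatives were not counted over the other 25 members. For the 18 changes against wild type, 193 of 234 fits with a sample left out and 191 of 251 fits under other settings kept the call, and for the 14 differences between mutants 135 of 182 and 155 of 182 did. Counts of the 27 members that passed (3 in alg-1, 5 in zfp-1, 7 in rde-4 and 3 in lin-35 unc-13 larvae) ranged over 1 to 5, 0 to 7, 4 to 9 and 0 to 4 with each sample left out. Fitted with wild type alone, they were 1, 2, 1 and 0 in limma (the last with 5 at an unadjusted p under 0.05). At an adjusted p under 0.01 they were 1, 1, 2 and 0 in limma, where 6 lin-35 unc-13 changes had an unadjusted p under 0.05. Without a filter on dim genes the zfp-1 count was 1. With replicate 3 alone as the wild type the alg-1, zfp-1 and rde-4 counts were 1 each. With alg-1 replicates 1 and 3, which differed among all genes by about as much as 2 arrays of a sample (SD 0.27, beside 0.22 and 0.36), taken as 1 sample, the alg-1 count was 1. Under a filter at 6, lys-6 was not tested. The cause of these shifts was not tested.

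With the replicate number as a block, 4, 7, 9 and 4 members passed. The labels do not say whether replicate numbers mark a shared batch, and whether they pair the samples was not settled here. Of 23 same-numbered pairs, 13 had deviations correlated at over 0.1, with r from -0.27 to 0.38. Groups of 2 or 3 samples and dim values under 5 limit what can be called.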
